A study of Mus musculus with 3 samples.

Results

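The genes described here encode the chains of the myosin motors. They were all genes on the array whose symbol starts with Myo, Myh or Myl followed by a digit, except the smooth muscle genes Myh11 and Myl9. This gave 47 of the 19938 genes measured, namely 24 unconventional heavy chain genes (Myo), 13 conventional heavy chain genes (Myh) and 10 light chain genes (Myl). The rule rests on names and uses no signal, but it was set with earlier results of these data known. RNA was profiled in 3 samples of adult renal corpuscle, the capillary tuft of the nephron with its capsule. Every sample came from wild-type CD-1 males aged 7 to 9 weeks, was a pool of about 2 kidneys, and was prepared by digestion with 0.5% collagenase A for 15 minutes and sieving. CD-1 is an outbred stock. No cells were sorted, and there is 1 group, so no conditions were compared.

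Myosins are motors that pull on actin filaments with energy from ATP. Conventional myosin, or myosin II, is built from a pair of heavy chains with an essential and a regulatory light chain for each, and its tails assemble into filaments that shorten muscle or, in other cells, tension the cortex and stress fibers. Unconventional myosins do not form such filaments; they carry vesicles, tether membranes and shape projections, and most of them bind calmodulin as a light chain. In the glomerulus the podocyte foot processes rest on an actin cytoskeleton, and in humans mutations of MYH9 or MYO1E cause glomerular disease.

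Signals are log2 values. The level of background was set array by array from the odorant and vomeronasal receptor genes, as the 95th percentile of their probe sets. This was 6.90 log2 on replicate 1, 6.96 on replicate 2 and 6.92 on replicate 3, which correspond to 119, 124 and 121 on the linear scale. A gene was called detected where its signal exceeded this level at an adjusted p under 0.05 in a one-sided limma test over all genes. Each probe set has its own affinity, so the signal of one gene does not rank its transcript against that of another. The labelled tissue carried its defining transcripts. All 6 podocyte, 8 endothelial and 6 mesangial markers with a value were detected. Of markers of other cells, 8 of 9 were detected for proximal tubule, 6 of 8 for smooth muscle, 7 of 10 for blood cells and 5 of 8 for loop, distal tubule and collecting duct, against 58.9% of all genes, so that the counts for the last pair of lists are near the share of all genes. In such bulk samples fewer cells of a type and less RNA per cell cannot be told apart.

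Of the 47 myosin genes 26 were detected (55.3%), against 58.9% of all genes and 62.3% of all genes other than the receptors. The family as a whole was thus close to the background share, and the classes differed in which members carried signal. Among the unconventional heavy chains 15 of 24 were detected (62.5%), among the conventional heavy chains 4 of 13 (30.8%), and among the light chains 7 of 10 (70%). These counts depended on the background level. With the 99th percentile of receptors in place of the 95th, 10 unconventional, 2 conventional and 4 light chain genes were detected, 16 in all, and with a fixed signal of 150 the conventional count was 2. A linear signal over 500 on all arrays was found for 7 unconventional, 1 conventional and 3 light chain genes, together 23.4% of the family. The share was 17.2% of all genes and 18.3% of all genes other than the receptors. Over 1000 there were 4, 0 and 3, together 14.9%, against 7.59% and 8.08%. Over 150 there were 14, 2 and 6, together 22 of 47, against 51.3% of all genes. These counts rest on the probe set of highest signal. With the mean or the lowest probe set of each gene, 8 of 47 members were over 500 and 6 over 1000. By the probe set of highest signal, the median was 7.37 log2 for the unconventional class and 6.57 for the conventional class. It was 7.30 for all genes and 7.41 for all genes other than the receptors. The difference between the medians of the unconventional and the conventional class was 0.80 ± 0.05 log2 (SD over 3 arrays). The unconventional median was the same on all arrays, and the conventional median was the signal of Myh8. This SD is therefore that of Myh8 alone, which was not detected. The difference describes signals of different probe sets and was not tested.

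**Figure D1:**
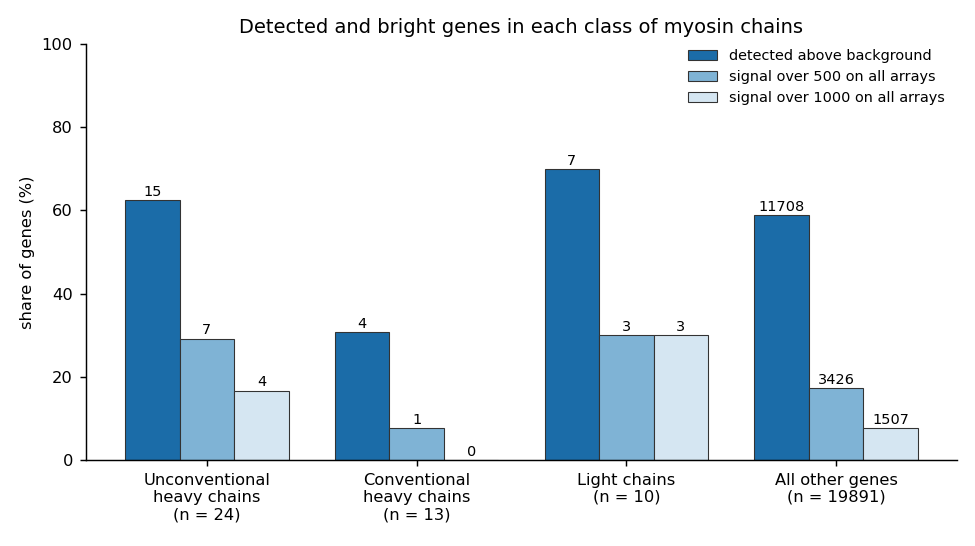
Share of genes (vertical axis, percent) that were detected, over a linear signal of 500 and over 1000 on all arrays, for unconventional heavy chains, conventional heavy chains, light chains and all other genes; numbers over the bars are counts of genes. The conventional class had 4 of 13 genes detected and 0 over 1000, while the unconventional class had 15 of 24 detected and 4 over 1000.

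The sequences before the start sites of some detected members and of Myh4, a sarcomeric gene that was not detected, are printed here as examples. They are the 250 bases upstream of the start in the RefSeq table for GRCm38.p6, read along the gene's strand. Capitals mark matches on either strand to the GC box (GGGCGG), to the TATA motif (TATAAA), to the CArG box known for serum response factor and to the MEF2 site.
Myl12b, chr17:70990517-70990766, minus strand: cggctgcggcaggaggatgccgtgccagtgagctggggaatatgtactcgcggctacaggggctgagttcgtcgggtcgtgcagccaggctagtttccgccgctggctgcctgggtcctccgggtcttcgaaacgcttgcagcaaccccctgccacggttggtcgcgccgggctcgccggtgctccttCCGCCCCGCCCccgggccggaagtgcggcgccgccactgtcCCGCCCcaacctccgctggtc
Myo6, chr9:80164784-80165033, plus strand: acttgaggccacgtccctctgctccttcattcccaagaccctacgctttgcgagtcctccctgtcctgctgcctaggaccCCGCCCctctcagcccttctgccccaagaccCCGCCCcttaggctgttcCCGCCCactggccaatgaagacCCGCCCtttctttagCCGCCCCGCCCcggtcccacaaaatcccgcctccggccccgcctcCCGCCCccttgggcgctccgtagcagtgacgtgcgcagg
Myo1e, chr9:70207100-70207349, plus strand: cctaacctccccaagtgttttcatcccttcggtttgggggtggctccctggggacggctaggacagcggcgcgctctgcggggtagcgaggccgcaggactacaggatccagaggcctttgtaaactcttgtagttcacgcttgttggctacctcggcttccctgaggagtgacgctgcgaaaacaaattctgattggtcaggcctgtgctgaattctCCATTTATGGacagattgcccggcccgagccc
Myh9, chr15:77842176-77842425, minus strand: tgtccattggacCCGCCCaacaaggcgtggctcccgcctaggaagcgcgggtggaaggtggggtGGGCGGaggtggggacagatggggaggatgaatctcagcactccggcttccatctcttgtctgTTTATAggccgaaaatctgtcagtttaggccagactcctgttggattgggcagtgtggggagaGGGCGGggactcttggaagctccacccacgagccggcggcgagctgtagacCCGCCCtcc
Myh4, chr11:67237562-67237811, plus strand: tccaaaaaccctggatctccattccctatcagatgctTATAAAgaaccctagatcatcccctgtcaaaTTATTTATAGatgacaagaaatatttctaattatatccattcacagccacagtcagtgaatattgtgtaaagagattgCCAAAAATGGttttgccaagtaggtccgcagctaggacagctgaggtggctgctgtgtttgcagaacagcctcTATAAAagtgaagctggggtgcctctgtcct

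The stretches of Myl12b, Myo6, Myo1e and Myh9 held 28, 18, 14 and 14 CG dinucleotides, and that of Myh4, a fast skeletal heavy chain gene, held 1. GGGCGG stood 3 times before Myl12b, 7 times before Myo6 and 4 times before Myh9, which also held 1 match to TATAAA. The Myh4 stretch had 3 matches to TATAAA, 1 of which overlaps its MEF2 site, and a CArG box. Myh4 does not stand for its class, as the undetected Myh2, Myh6, Myh7b and Myh13 had no match to TATAAA, CArG box or MEF2 site. Myo1e had a CArG box at position -32 from its start. RefSeq upstream stretches were found for 43 of the 47 genes, 54 in all because some genes have several starts. The median count of CG was 14 over the 30 stretches of detected members, 3.5 over the 24 of undetected members and 6 over all 32851 promoters. All promoters were not split by detection, so this contrast has no matching value over all genes. GGGCGG was found in 61.5% of unconventional, 14.3% of conventional and 28.6% of light chain stretches, against 32.7% of all promoters. TATAAA was found in 7.69%, 42.9% and 14.3% of them, against 12.4% of all. A CArG box was found in 5 of the 54 stretches (9.26%), against 1.47% of all promoters. A MEF2 site was found in 3, all before striated muscle heavy chain genes, against 2.92% of all. These are counts of letters and say nothing of what binds there.

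The class I myosins, single-headed motors that link membrane to actin, included the unconventional genes of highest signal. Myo1d, a motor of membrane traffic, had 12.22, 12.08 and 12.11 log2 on replicates 1, 2 and 3, a mean of 12.14 ± 0.07 (SD, n = 3) and 5.22 above background. Myo1e, a long-tailed class I myosin whose loss in mice leads to proteinuria, had 11.79, 11.65 and 11.61, a mean of 11.68 ± 0.09. Myo1c, a short-tailed member that moves vesicles to the cell surface, held 9.34 on every array. All signals of these genes lay far above background, and the arrays of Myo1d and Myo1e lay close together. Myo1c held 1 value and could not differ. Myo1g, a class I myosin of blood cells, was detected at 7.39, only 0.46 above background. Myo1f, the other blood cell member, held 6.96, which is 0.037 above background, and was not called (adjusted p = 0.16, limma). The 10 haematopoietic markers, of which 7 were detected and Itgam, Adgre1 and Cd79a were not, summed to linear signals of 2615, 2939 and 2233 on replicates 1, 2 and 3, and their part in the Myo1g signal was not tested. Myo1a, the brush border myosin of intestine, and Myo1h lay below background at 6.32 and 6.79.

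Myo6, the myosin that moves toward the pointed end of actin and serves endocytosis, had signals of 10.87, 10.65 and 10.64 log2, a mean of 10.72 ± 0.13 (n = 3). Myo10, which carries cargo into filopodia, had 9.93, 10.00 and 10.07, a mean of 10.00 ± 0.07, or a linear signal of 1025. Myo6 was highest and Myo10 lowest on replicate 1. Of the class V cargo carriers, Myo5a, the motor of melanosomes and of the endoplasmic reticulum in neurons, held 7.51, and Myo5b, which moves recycling endosomes in epithelia, stood at 7.25 ± 0.01. Both were detected, by 0.58 and 0.33 log2. Myo5c, known from gland cells, was not detected at 6.27.

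The class IX myosins carry a GTPase-activating domain in their tail. Myo9a had 9.60, 9.11 and 9.44 log2 on replicates 1, 2 and 3, a mean of 9.38 ± 0.25 (n = 3) and the widest spread of any detected myosin. Myo9b held 8.08. Both were detected, by 2.46 and 1.16 log2. Of the class XVIII genes, Myo18a, a PDZ-domain myosin tied to the Golgi, had 8.46, 8.46 and 8.43, a mean of 8.45 ± 0.02. Myo18b, known from heart and skeletal muscle, stood at 10.96, 11.01 and 11.06 by the probe set of highest signal, a mean of 11.01 ± 0.05, while 12 of its 20 probe sets were not detected. Without Myo18b 14 of 23 unconventional genes were detected (60.9%).

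The remaining unconventional genes had low signals. Myo7a, a motor of hair cell stereocilia that is also present in retina, had a linear signal of 256 on every array and was detected. Myo19, the motor bound to mitochondria, held 7.35, and Myo15b held 7.06, which is 0.13 above background. Myo7b, which links microvilli of intestine and kidney brush borders, had 6.73, 6.73 and 6.65 and was not detected. Of the 9 proximal tubule markers 8 were detected and Cubn was not. The hearing genes Myo3a, Myo3b and Myo15 had 5.06, 6.14 and 6.33 and Myo16, known from neurons, had 6.63, none of them detected. Of 3 markers of hair cells with a value 1 was detected, Espn at 7.47, while Otof and Pou4f3 were not.

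**Figure D2:**
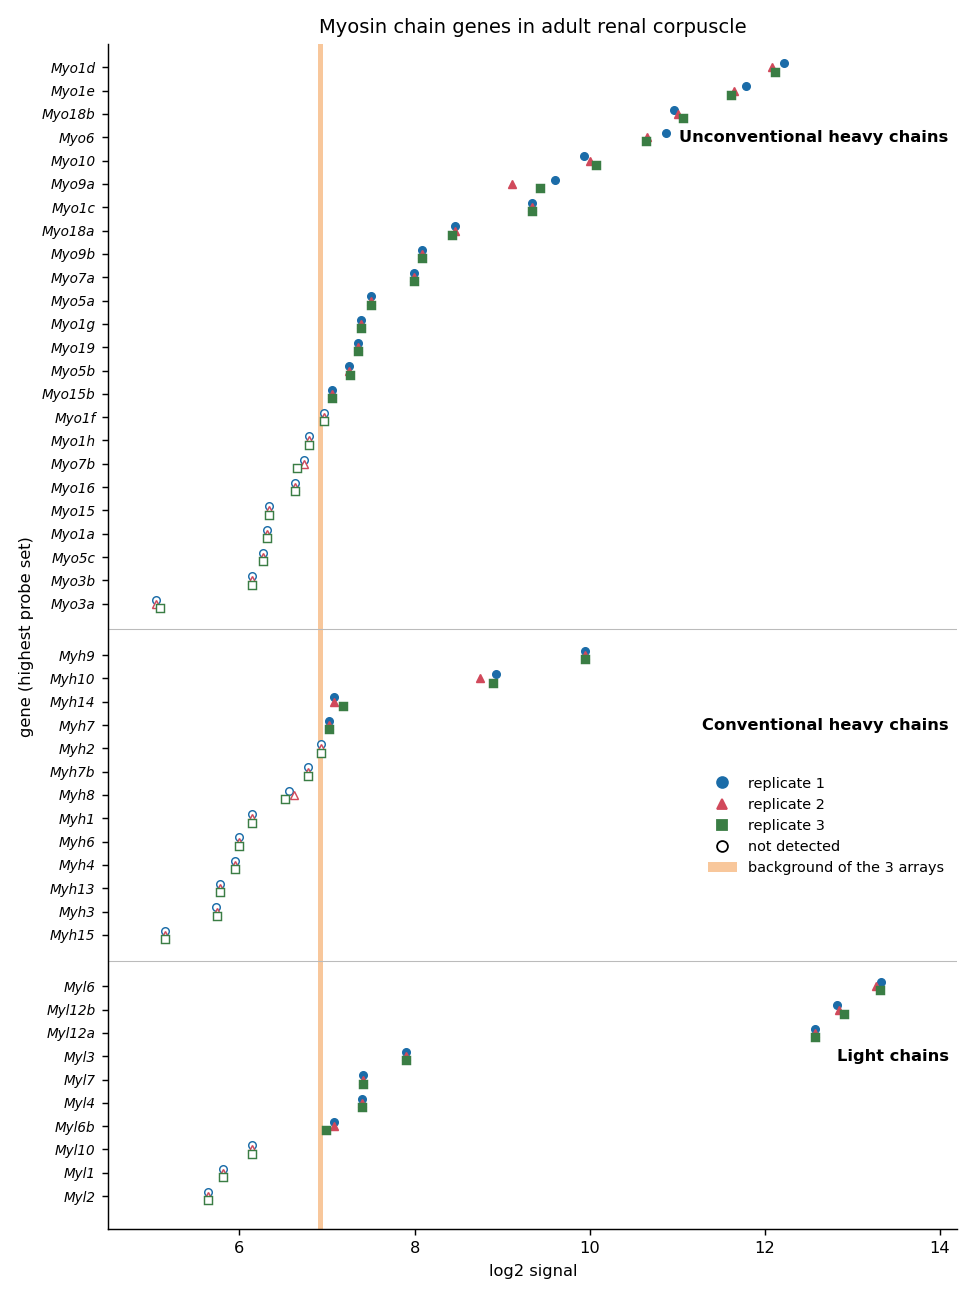
Signal in log2 (horizontal axis) of each of the 47 genes (rows, grouped by class and ordered by mean) on replicates 1, 2 and 3; filled symbols are detected genes, open symbols are not, and the shaded orange strip marks background, from 6.90 to 6.96. Unconventional genes spread on both sides of the strip, 9 of the 10 striated muscle heavy chains lie below or at the strip, and Myl6, Myl12b and Myl12a stand apart at the right.

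Of the 4 conventional heavy chain genes detected, 3 encode nonmuscle myosin and 1, Myh7, belongs to striated muscle. Myh9, the heavy chain of nonmuscle myosin IIA, held 9.94 log2 on every array, a linear signal of 983 and 3.02 above background. Myh10, that of myosin IIB, had 8.93, 8.74 and 8.90, a mean of 8.86 ± 0.10 (n = 3), and a linear signal of 464. Myh14, that of myosin IIC, had 7.08, 7.08 and 7.18, a mean of 7.11 ± 0.06, only 0.19 above background. All 3 nonmuscle genes were thus detected, and the Myh14 call ended with a fixed background of 150 or with the 99th percentile of receptors.

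Of the 10 heavy chain genes of striated muscle 1 was detected (10%), against 58.9% of all genes. It was Myh7, the slow and beta-cardiac heavy chain, which held 7.02 log2, 0.097 above background (adjusted p = 0.000553, limma), and was not called without replicate 3, with a fixed background of 150 or with the 99th percentile of receptors. Myh2, a fast skeletal gene, held 6.93 and stood within 0.0097 of background (adjusted p = 0.608). The other fast skeletal genes Myh1 and Myh4 had 6.14 and 5.94, the embryonic and perinatal genes Myh3 and Myh8 5.74 and 6.57, the alpha-cardiac gene Myh6 5.99, the extraocular gene Myh13 5.77, and Myh7b and Myh15 6.78 and 5.15. These 9 genes lay at or below background, and 7 of them held 1 value on all arrays. Myh7b was 0.14 and Myo1h 0.13 below background, the nearest members under it.

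In heart and slow muscle the myosin genes Myh6, Myh7 and Myh7b are known to host microRNAs. Their mature sequences are shown because 2 of the hairpin genes have probe sets of their own on the array, with the seed (bases 2 to 8) in capitals.
mmu-miR-208a-3p, host Myh6: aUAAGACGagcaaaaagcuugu
mmu-miR-208b-3p, host Myh7: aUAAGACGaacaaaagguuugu
mmu-miR-499-5p, host Myh7b: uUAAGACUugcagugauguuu
The miR-208 pair shares the seed UAAGACG, and miR-499-5p has UAAGACU. The hairpin gene Mir208a held 4.18 log2 on every array and Mir499 had 5.81, 5.76 and 5.81, both below background like their hosts Myh6 and Myh7b. These probe sets lie on hairpin genes, and mature microRNAs were not measured.

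The light chain genes split into a bright and a dim set. Myl6, the essential light chain of nonmuscle and smooth muscle myosin, had 13.33, 13.27 and 13.31 log2, a mean of 13.30 ± 0.03 (n = 3) and a linear signal of 10114. The regulatory light chains of nonmuscle myosin, which are switched on by phosphorylation, were Myl12b with 12.83, 12.84 and 12.91, a mean of 12.86 ± 0.04, and Myl12a, which held 12.57. These 3 genes stood 5.65 to 6.38 log2 above background. Myl12a and Myl12b are near-identical copies, and how their probes share signal is not known from the table. Myl6b, the neighbour of Myl6 that encodes a related chain, had 7.08, 7.08 and 6.98, a mean of 7.04 ± 0.05, 0.12 above background.

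Of the light chain genes known from striated muscle, Myl3, the ventricular and slow muscle essential chain, held 7.90 log2, Myl4, the atrial and embryonic essential chain, 7.41, and Myl7, the atrial regulatory chain, also 7.41. All 3 were detected, by 0.98, 0.48 and 0.49 log2, with linear signals of 240, 170 and 170. Myl1 and Myl2 were not detected, at 5.81 and 5.64. Myl10, a regulatory light chain gene of muscle or other cells, was not detected either, at 6.14. Of 7 markers of skeletal and cardiac muscle 5 were detected (71.4%), near the 58.9% of all genes, Tnnt2 being highest at 8.08, while Ttn and Actc1 were not. Their summed linear signals were 1155, 1191 and 1181 on replicates 1, 2 and 3, and their part in the signals of Myl3, Myl4 and Myl7 was not tested. When background was raised to the 99th percentile, Myl3 was still called and Myl4 and Myl7 were not.

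For the 5 genes with several probe sets, the probe sets named for the same gene were compared. The 6 probe sets of Myl6 were all detected, between 13.06 and 13.30 log2. The 1 numbered beside the probe set of Myl6b, the neighbour of Myl6, stood at 13.15. The others, with the 1 used for Myl6 among them, are numbered near genes of other chromosomes. Whether they read near-identical copies is not known from the table. The 2 probe sets of Myo1d, at 12.14 and 11.97, were detected too. Those of Myh9 were both detected but differed by 2.18 log2, at 9.94 and 7.76. Of the 13 probe sets of Myo9a 10 were detected, and they ran from 9.38 down to 3.78. Of the 20 probe sets of Myo18b 8 were detected, against 59% of all probe sets that name 1 gene. The highest stood at 11.01, the second at 9.12 and the third at 8.19, and the lowest at 5.81. The median of the 20 was 6.93, at background, and by that median Myo18b was not detected. The value given for Myo18b is thus that of 1 probe set, which was 1.89 log2 above the next for this gene.

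**Figure D3:**
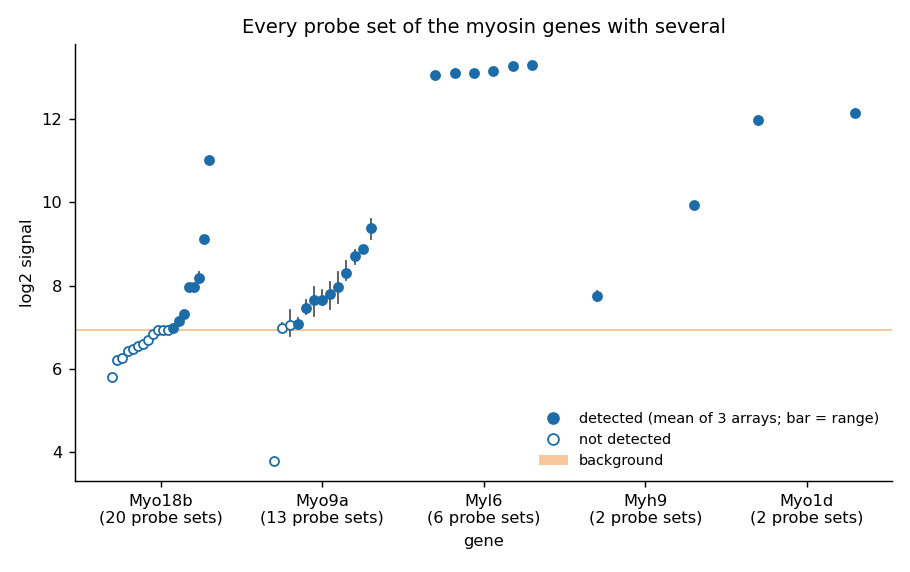
Mean log2 signal over 3 arrays (vertical axis) of every probe set of the 5 myosin genes that have several; bars span the 3 arrays, filled points are detected and open points are not, and the orange band is background. The probe sets of Myl6 lie together near 13, while those of Myo18b and Myo9a run from well above the band to below it.

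Of the 26 detected members 0 were more than 1.5-fold apart between any 2 arrays, which is near the 1.47% of all detected genes, and 13 of the 26 held 1 value on all arrays and could not differ. Many values were the same on several arrays to the last decimal, 30 of 47 members (63.8%) and 54.2% of all genes holding 1 value on all 3, so an SD of 0 is no measure of error. Among the 9 detected members with 3 different signals the median SD was 0.075 log2, against 0.094 over the 3012 such genes in all. Replicate 1 was the highest for 6 of these 9 members (66.7%), namely Myo1d, Myo1e, Myo6, Myo9a, Myh10 and Myl6, and for 50.8% of the 3012 genes. Replicate 2 was the highest for 0 of 9, and for 20.7% of the genes. Myo10, Myo18b and Myl12b were highest on replicate 3 and lowest on replicate 1.

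Separate probe sets of Myl6 and Myo9a mostly shared the array that was highest. All 6 probe sets of Myl6 were highest on replicate 1 and lowest on replicate 2, and 11 of 13 of Myo9a were highest on replicate 1 alone. Probe sets of 1 gene were read on the same arrays and are not replicates. Means of marker lists moved between arrays too. The mean deviation of detected markers from the 3-array mean was 0.033 log2 on replicate 1 for podocyte and 0.054 for endothelial genes, -0.052 for mesangial genes, and -0.22 for smooth muscle and -0.11 for proximal tubule genes. Median deviations over all markers with a value were smaller, at 0.0042, 0.0091, -5.7e-05, -0.097 and -0.0033 in that order. For smooth muscle and proximal tubule the medians include undetected markers that the means leave out, so there they do not cover the same genes. The part of these shifts in the myosin signals was not tested. Summed over all 8 smooth muscle markers, linear signals were 3425, 3957 and 4583 on replicates 1, 2 and 3, with Cnn1 and Myocd not detected. The excluded smooth muscle myosin genes Myh11 and Myl9 belong to this list and were lowest on replicate 1, at 7.99 and 10.95. Of the other detected markers in it, Acta2 and Lmod1 were also lowest on replicate 1. Tagln held 1 value on all arrays and Smtn was highest on replicate 1.

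**Figure D4:**
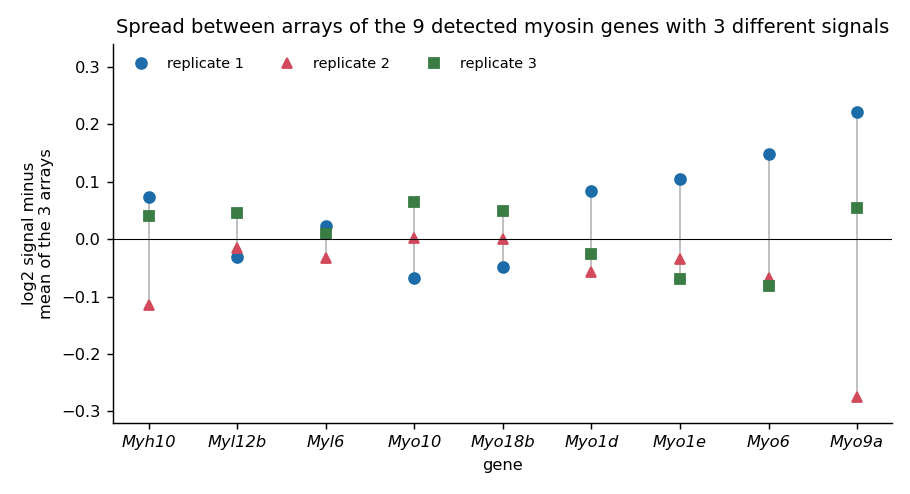
Deviation of the log2 signal from the mean of the 3 arrays (vertical axis) on each replicate for the 9 detected myosin genes with 3 different signals. Myo9a spans the widest range, and replicate 1 is the top symbol for 6 of the 9 genes.

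Partners of the motors were examined in lists. Of the kinases of the regulatory light chain, its phosphatase and their regulators 14 of 18 were detected (77.8%), against 58.9% of all genes. The GTPase gene Rhoa held 12.53 log2, the phosphatase subunit gene Ppp1cb was at 11.85 ± 0.02 (n = 3), the kinase gene Rock1 at 11.12 ± 0.05 and Cdc42bpa, another kinase, at 10.81 ± 0.16. Of the kinases known from striated muscle, Mylk3, named after its values were seen, was detected at 7.22, 0.29 above background, and Mylk2 and Mylk4 were not, at 5.97 and 6.57. The phosphatase inhibitor gene Ppp1r14c was not detected at 6.52. Of 13 actin filament partners 12 were detected, led by Actb at 13.33 ± 0.11, the tropomyosin genes Tpm4 at 12.23 ± 0.09 and Tpm3 at 11.72, and Actn4, an actin crosslinker mutated in human glomerulosclerosis, at 11.41 ± 0.01. Anln was the undetected one, at 6.55.

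Calmodulin, the light chain of most unconventional myosins, was represented by Calm2 at 13.73 ± 0.03 log2 and Calm3 at 10.59 ± 0.08 (n = 3). Calml4 was detected at 10.99 ± 0.10 and Calml3 was not, at 6.18. The myosin chaperone genes Unc45a and Unc45b were both detected, at 7.96 and 7.76. Of 24 cargo adaptor genes 19 were detected (79.2%), against 58.9% of all genes. Dynll1, a light chain shared with dynein, was at 11.23 ± 0.03. The GTPase genes Rab10 and Rab11a were at 11.11 and 11.10, and Dab2, an endocytic adaptor of Myo6, at 10.98. Sytl2, Cdh23 and Anks4b were not detected, the last a brush border partner of Myo7b at 6.48.

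Of 27 genes known from the sarcomere and other structures of muscle 13 were detected (48.1%), against 58.9% of all genes. The list median was 6.95 log2, 0.021 above background. The member of highest signal was Myom2, an M-band gene, at 10.41 ± 0.08 (n = 3), followed by Tnnt2 at 8.08 ± 0.10, Ckm at 7.70 and Tnnc1 at 7.66 ± 0.03. Myoz2, Casq2 and Neb were not detected, at 5.34, 6.09 and 6.12. Only Myom2 exceeded a linear signal of 500 on all arrays. Over all partner lists 63 of 88 genes were detected (71.6%), and without the sarcomere list 50 of 61 (82%), against 58.9% of all genes.

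**Figure D5:**
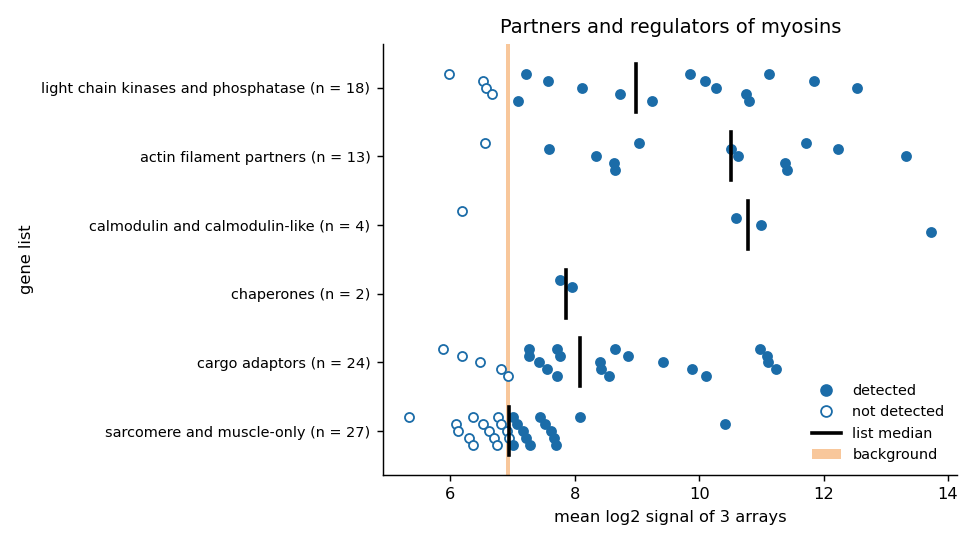
Genes of 6 lists of myosin partners (rows) by their log2 signal averaged over the arrays (horizontal axis). Detected genes are filled and the others open, a black bar gives the median of a list, and background is the orange band. Most kinase, actin partner and cargo adaptor genes lie right of the band, and 14 of 27 sarcomere genes are open points.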

How the data were processed

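Total RNA from 3 samples of sieved renal corpuscle was amplified in 1 round and measured on Affymetrix mouse gene arrays. The authors deposited 1 table of log2 signals for 35557 probe sets; Expression Console of Affymetrix is named in the submitters' processing notes, with the summary method not given in the sources used. The table holds 0 columns of other samples. Values were used as deposited.

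Genes were named through the platform annotation by the 21789 probe sets that name 1 gene, the one of highest mean log2 standing for its gene. All 47 members matched a current RefSeq symbol. Background used 1210 receptor probe sets. Detection was tested with limma 3.58.1 (R 4.3.3; lmFit with an intercept, eBayes with a trend) on signal minus background, with Benjamini-Hochberg adjustment over 19938 genes. In this fit of genes, standard errors depended on signal level alone, so the call is in effect a cut close above background. Single probe sets were tested in a separate fit over the 21789, where standard errors also followed the spread between arrays. The p-values may be too small because many values are tied. The script was tested on simulated data. Whether the pools were prepared separately is not stated in the labels. The p-values of genes rest on a spread between arrays pooled over genes of like signal, which may be only technical. The number of arrays limits the precision.

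All members were accounted for. Values on every array were planned for the 15 detected members of highest signal, those nearest background, nonmuscle myosin II and the widely used light chains, and genes whose probe sets differ in their call. Of each partner list the 4 detected genes of highest signal and up to 3 undetected ones were named. Alternatives covered background, normalization, choice of probe set, variance model, a filter on dim genes and leaving out each replicate. The members and lists were chosen with earlier results of these data known. Some genes of the lists are not reported here.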

Additional observations from a re-analysis of the deposited data

How the results depend on the processing

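No paired analysis was possible because there is only 1 group. The background level moved the counts most. With the 99th percentile of receptors 16 of the 47 myosins were detected, 2 of them conventional heavy chains and 4 light chains. With the median of receptors 45 were detected, 23 unconventional and 12 conventional, as were 18024 of all genes. With a fixed signal of 150 conventional heavy chains numbered 2. Under all other settings, and for the other counts, the number stayed within 1.5 times. Leaving out a replicate gave 25 to 27 myosins; without replicate 2 Myo1f was called, and without replicate 3 Myh7 was not. Of the 26 detected members 14 were detected under all 13 alternatives, Myh10, Myh9, Myl12a, Myl12b, Myl3, Myl6, Myo10, Myo18a, Myo1c, Myo1d, Myo1e, Myo6, Myo7a and Myo9b.

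Class medians above background followed the level chosen. With the 99th percentile they were -0.50 log2 for all myosins, -0.19 for unconventional, -0.99 for conventional and -0.15 for light chains. With the median of receptors they were 1.68, 1.99, 1.19 and 2.03 in that order, and with the fixed signal -0.17, 0.14, -0.66 and 0.18. With the lowest probe set of each gene they were 0.097 for all and 0.23 for unconventional genes, and with the mean or the median of probe sets 0.38 for unconventional genes. A filter on dim genes gave 0.19 for all and -0.25 for conventional genes. The unconventional minus conventional difference stayed positive, at 0.58 with the lowest, 0.73 with the mean and also with the median of probe sets, and 0.71 with the filter. Using the median of probe sets was chosen after the data were seen.

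Members that fell below background with the 99th percentile were Myh14 (-0.45), Myh7 (-0.54), Myl4 (-0.15), Myl6b (-0.52), Myl7 (-0.15), Myo15b (-0.50), Myo19 (-0.21), Myo1g (-0.17), Myo5a (-0.053) and Myo5b (-0.31). With the fixed signal these were Myh14 (-0.12), Myh7 (-0.21), Myl6b (-0.18) and Myo15b (-0.17). With the lowest probe set Myo18b stood at -1.12 and Myo9a at -3.15, and with the median of its probe sets Myo18b stood at -0.013.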
